A study of Mus musculus with 12 samples.

Results

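PIWI proteins and their partners in the germ cell nucleus were followed in newborn mouse gonocytes with and without MORC1. The 6 genes examined were Piwil1, Piwil2, Piwil4, Spocd1, Tex15 and Mael. They were picked by symbol, through the Ensembl identifiers of GENCODE release M21, from the 35666 genes of the deposited P0 table, and each symbol matched 1 row. The rule is their names and pathway, and no threshold on a measured value enters it.

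Gonocytes, which are the precursors of spermatogonia, came from male mice that carry the Mvh-Venus reporter, a fluorescent marker of the germ cell gene Ddx4 (also called Mvh). Both genotypes carry this transgene. The controls were heterozygous, Morc1 (+/-), and not wild type, and the knockouts (KO) were Morc1 (-/-). Each genotype had 3 libraries at postnatal day 0 (P0), and the P3 samples that the labels also list were not analysed here. The labels give neither the form of the Morc1 allele nor how many animals stand behind a library, so p-values measure only the spread between these samples, which may be technical.

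PIWI proteins are Argonaute family members that carry piRNAs, short germline RNAs, to the transcripts of transposable elements. In fetal male germ cells the cytoplasmic protein PIWIL2 (MILI) cuts transposon RNA and helps to load PIWIL4 (MIWI2), which then enters the nucleus. There SPOCD1 and TEX15 act with PIWIL4 to direct DNA methylation to young transposon copies, and MAEL is needed for piRNA production and transposon silencing. PIWIL1 (MIWI) is best known from later stages, in meiotic spermatocytes and spermatids.

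Values are normalized counts, that is reads per gene divided by a size factor for each library. The gene table held 28363683 to 32816861 reads per library. The scarcest member value, that of Piwil1 in het replicate 3, rested on 810 reads, so that counting error there was 3.51%. The targeted gene was checked first: its normalized counts were 7248, 7485 and 4126 in het libraries (replicates 1 to 3), against 1360.5, 1343 and 1794 in KO libraries, in the same order. No KO library reached the het range, and the log2 fold change of Morc1, KO minus het, was -2.03 ± 0.27 (SE, limma adjusted p 0.0109). That call was lost without het replicate 1 or KO replicate 1 or 3. Het replicate 3 stood apart by its Leydig cell markers: the 5 genes summed to 24921 normalized counts there and to 509.6 to 1079 in the other libraries. KO replicate 2 had the highest Zbtb16, a gene of undifferentiated spermatogonia, at 1812 normalized counts against 159 to 563 elsewhere. None of the markers of any list was at 0 in all libraries. The 12 germ cell markers included Ddx4, with 17605 to 31038 normalized counts over the 6 libraries, and Dazl, with 48158 to 72571. Of these 12, limma called 0, beside 0.431% of all genes tested called higher and 0.0423% lower in KO. Lin28a, an RNA-binding protein gene of early germ cells, was the 1 with an unadjusted limma p under 0.05. It was on the higher side, where 4.42% of all genes had such a p.

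Every member was detected in every library, and their levels differed widely. Per kb of exon, which allows levels to be compared between genes, Mael was the highest in all 6 libraries. It had 23985 ± 4293 normalized counts per kb in het and 19153 ± 3787 in KO (SD, n = 3), and its mean placed it at rank 14 of 17653 tested protein-coding genes. Piwil2 followed with 5554 ± 1895 in het and 5999 ± 2026 in KO (SD, n = 3). Spocd1 had 3824 ± 38.0 and 2132 ± 886, and Tex15 1683 ± 77.6 and 1715 ± 53.3 (SD, n = 3). Piwil4, the nuclear PIWI protein, was far below Piwil2, at 712 ± 144 per kb in het and 528 ± 159 in KO (SD, n = 3). The spermatocyte gene Piwil1 was the lowest in every library, at 201 ± 21.7 and 231 ± 18.9 (SD, n = 3).

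The order Mael, then Tex15 above Piwil4 and Piwil4 above Piwil1 held in each library, and the ranges of these neighbours did not overlap. The middle of the order was less firm. Piwil2 was above Spocd1 in all libraries but het replicate 3, where it was 0.892 times the Spocd1 level per kb, and Spocd1 was above Tex15 in all but KO replicate 2, where it was 0.804 times the Tex15 level. The ranges of Piwil2 and Spocd1 overlapped, as did those of Spocd1 and Tex15.

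**Figure D1:**
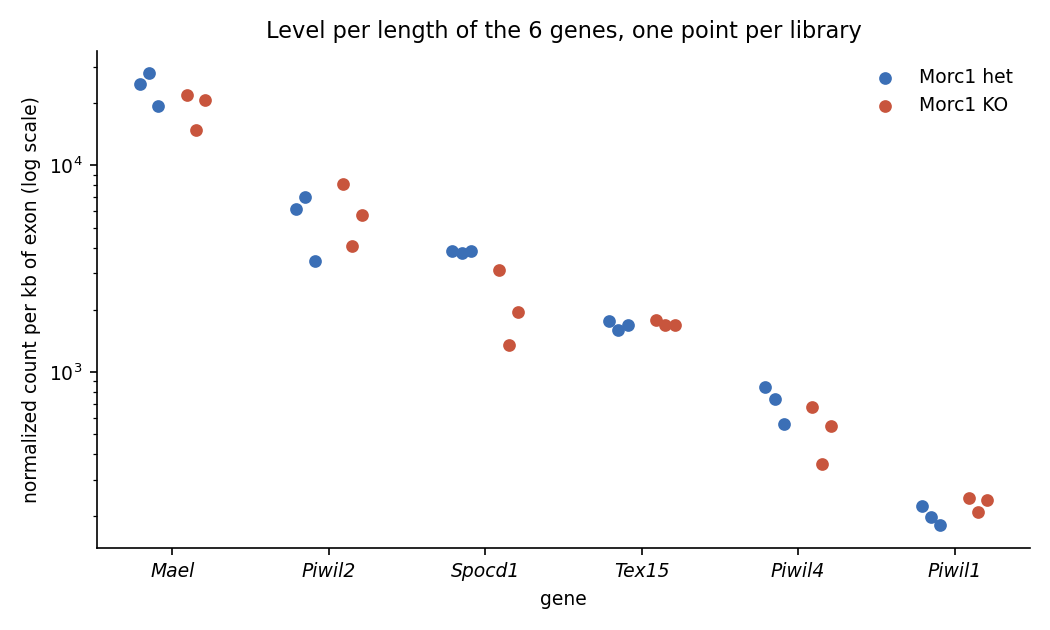
Normalized counts per kb of annotated exon (vertical axis, log scale) of the 6 genes, with 1 point per library, het in blue and KO in red. Mael is at the top and Piwil1 at the bottom in all 6 libraries, and the KO points of Spocd1 spread from 1357 to 3097 below the tight het points.

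Start regions were available here for Mael, Piwil4 and Piwil1, which lie at the top, near the bottom and at the bottom of this order. The bases before the annotated start that lie in no annotated exon are shown from RefSeq (GRCm38.p6), 5′ to 3′ on the strand of the gene. Capitals mark matches to CACGTG, the E-box read by MAX and related factors, and to TCCCGC, a core of E2F-type sites, on either strand. Both kinds of site are known from promoters of germline genes. The Mael window is chr1:166238748-166238994 (minus strand), the Piwil1 window chr5:128735996-128736173 (plus strand) and the Piwil4 window chr9:14740734-14740922 (minus strand). The Mael and Piwil4 windows precede the outermost start of the gene in GENCODE. The Piwil1 window does not: it precedes the start of the longest of 3 GENCODE transcripts, 33650 bp inside the gene, whose outermost start belongs to another transcript.
Mael: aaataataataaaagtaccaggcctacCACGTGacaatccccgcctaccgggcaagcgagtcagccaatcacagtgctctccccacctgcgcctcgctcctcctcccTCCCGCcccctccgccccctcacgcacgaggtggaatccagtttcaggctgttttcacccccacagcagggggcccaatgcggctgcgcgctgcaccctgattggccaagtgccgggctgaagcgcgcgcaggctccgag
Piwil1: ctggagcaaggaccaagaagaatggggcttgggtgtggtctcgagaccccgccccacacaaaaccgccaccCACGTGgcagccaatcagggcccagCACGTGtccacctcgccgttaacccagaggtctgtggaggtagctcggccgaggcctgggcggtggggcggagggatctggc
Piwil4: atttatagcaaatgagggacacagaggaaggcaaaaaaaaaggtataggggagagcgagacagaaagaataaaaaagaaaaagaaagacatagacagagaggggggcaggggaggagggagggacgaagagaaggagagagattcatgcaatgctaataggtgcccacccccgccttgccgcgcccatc

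The Mael window of 247 bases held 1 match to CACGTG and 1 to TCCCGC, and 18 CpG dinucleotides. At that length, 5.95% of the 32851 RefSeq start regions held CACGTG and 16.70% TCCCGC, and the median number of CpGs was 6. Lengths were counted from the far end of the 250 bases before each RefSeq start. For the shorter windows below, the shares and medians thus leave out the bases nearest that start. The Piwil1 window of 178 bases held 2 matches to CACGTG, which 3.64% of start regions hold at that length, none to TCCCGC (11.22% of start regions), and 11 CpGs against a median of 3. The Piwil4 window of 189 bases held neither motif (3.99% and 12.00% of start regions hold them) and 5 CpGs against a median of 4. A second Piwil4 start in RefSeq, 22260 bp inside the gene, has a window at chr9:14718474-14718637 (164 bases, not shown) with neither motif and 0 CpGs against a median of 3. Thus the windows of the most and the least abundant member both had an E-box match. The CpG count was above the median in these and in the Piwil4 window shown. A match describes the letters only, and no match says only that the letters are not in that window.

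The genotypes were then compared gene by gene, to see whether loss of MORC1 came with a change in the RNA of the nuclear piRNA machinery. None of the 6 genes passed an adjusted p under 0.05 in the limma fit over 26005 genes. In that fit 0.431% of all genes were called higher and 0.0423% lower in KO, so that calls were rare throughout. At an unadjusted p under 0.05, 0 members were higher and 1 was lower, beside 4.42% and 2.44% of all genes tested. In 1 member all KO libraries were below all het libraries, and in none were they all above, beside 5.57% and 7.17% of all genes. That member was Spocd1 in both counts. The members had a median log2 fold change of -0.15, all genes tested one of -0.02, with 3 members above 0 and 3 below.

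**Figure D2:**
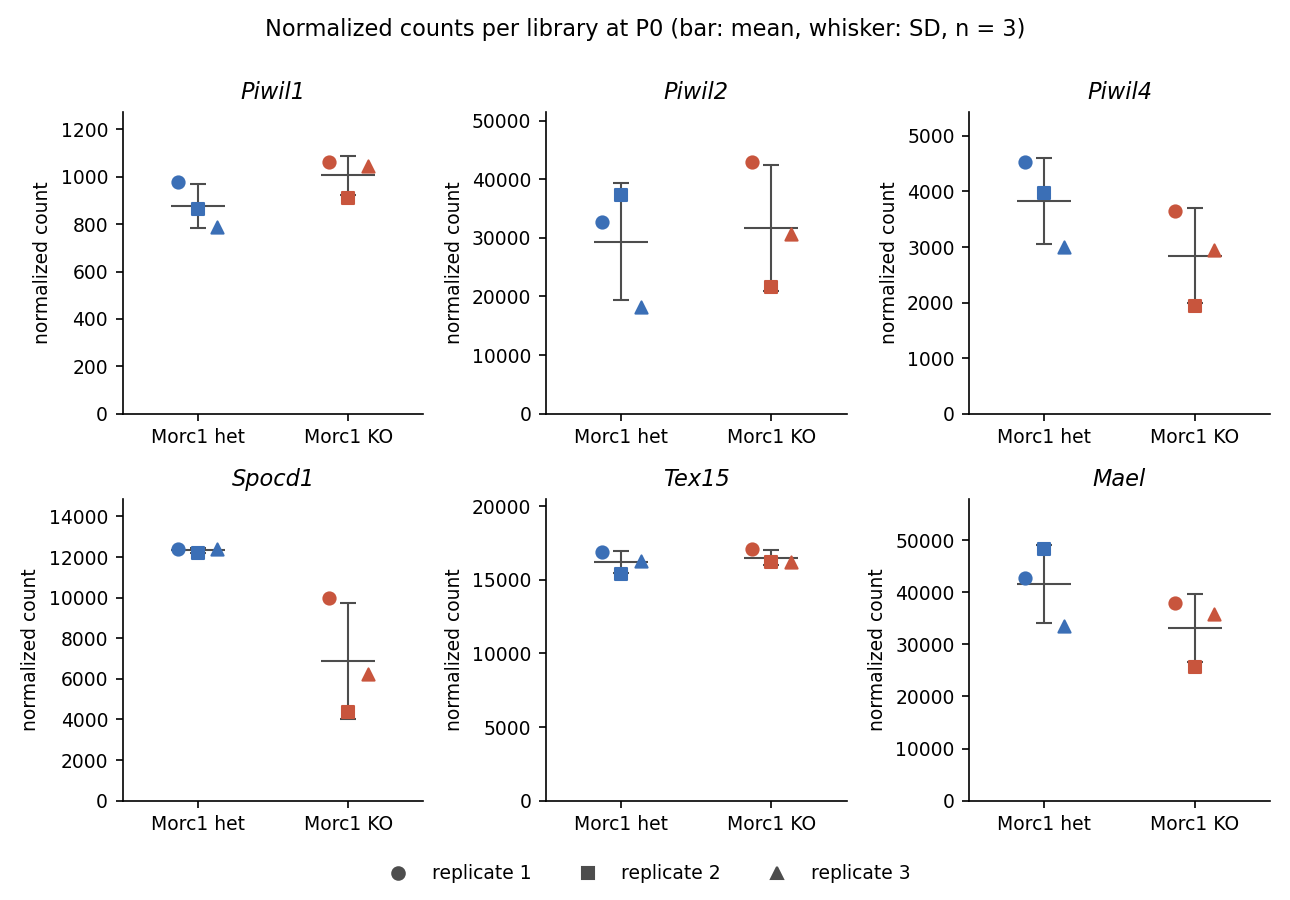
Normalized counts (vertical axes, from 0) of the 6 genes in the het (blue) and KO (red) libraries, with a symbol per replicate number, the mean as a bar and the SD as a whisker (n = 3). The KO libraries of Spocd1 lie between 4374 and 9982, below the het libraries at 12184 to 12403, and for the other 5 genes the genotypes overlap.

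The PIWI genes were read each in turn, and were not tested against each other. Piwil2 (ENSMUSG00000033644, minus strand, chr14:70372477-70429383, GRCm38) had normalized counts of 32625, 37347 and 18124 in het libraries, again listed by replicate number, and of 42955, 21625 and 30565 in the KO libraries. KO replicates 2 and 3 lay within the het range, KO replicate 1 was the highest library and het replicate 3 the lowest. The log2 fold change was 0.12 ± 0.32 (SE, limma adjusted p 0.970), and its 95% interval ran from -0.58 to 0.82. The sign of this estimate turned without het replicate 3 (-0.19) or KO replicate 1 (-0.13). In bulk RNA such as this, fewer cells of a type and less RNA per cell cannot be told apart.

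Piwil4 (ENSMUSG00000036912, minus strand, chr9:14696230-14740733) had 4533, 3966 and 2998 normalized counts in het and 3642, 1939 and 2944 in KO. KO replicates 2 and 3 were below every het library, while KO replicate 1 fell inside the het range. The KO mean of 2842 ± 856 was 74.2% of the het one, 3832 ± 776 (SD, n = 3). The log2 fold change was -0.46 ± 0.27 (SE, limma adjusted p 0.837), with a 95% interval from -1.06 to 0.15, and p was 0.200 by an exact two-sided permutation test. The interval thus covers falls of this size as well as no change.

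Piwil1 (ENSMUSG00000029423, plus strand, chr5:128702524-128755474) had 977, 864 and 790.0 normalized counts in het and 1063, 912 and 1045 in KO. KO replicates 1 and 3 were above every het library and KO replicate 2 was not. The log2 fold change was 0.20 ± 0.22 (SE, limma adjusted p 0.924), and its 95% interval ran from -0.28 to 0.69.

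Among the nuclear effectors, Spocd1 (ENSMUSG00000028784, plus strand, chr4:129929249-129957115) was the member with the largest difference. Its normalized counts were 12403, 12184 and 12387 in het libraries, a spread of 1.02-fold from lowest to highest. In the KO libraries they were 9982, 4374 and 6255, a spread of 2.28-fold. All KO libraries were thus below a nearly constant het level, to very different degrees. The KO mean of 6870.2 ± 2854 was 55.7% of the het one, 12325 ± 122 (SD, n = 3). The limma log2 fold change was -0.93 (SE 0.28) with a 95% interval from -1.54 to -0.31, unadjusted p 0.00730 and adjusted p 0.347, which misses the threshold. By an exact two-sided permutation test p was 0.10, the smallest value that 3 libraries against 3 can give. Without KO replicate 2, the lowest library, the log2 fold change was -0.64, and without KO replicate 1 it was -1.24.

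Sertoli cell markers did not stay level beside Spocd1. Their median log2 fold change was -0.69, that of the Leydig cell markers -1.99 and that of the germ cell markers 0.05. For blood it was 0.09, for endothelium 0.01 and for peritubular myoid cells 0.18. Of 10 Sertoli cell markers 9 had a negative log2 fold change, 4 with an unadjusted limma p under 0.05 (Sox9, Amh, Clu and Dhh), beside 2.44% of all genes. Past the adjusted threshold there were 0 of these 10 markers, beside 0.0423% of all genes called lower. Their sum ran from 18292 to 38690.0 normalized counts in het and from 13264 to 18827 in KO. Zbtb16 was highest, and Spocd1, Piwil4 and Mael lowest, in the same library, KO replicate 2. Of the other germ cell markers, Id4, Nanos2, Nanos3, Gfra1 and Lin28a were also highest there, and Dppa3 and Kit lowest. Ddx4, Dazl, Pou5f1 and Sohlh1 were neither. The part of other cells and of cell stage in the Spocd1 difference was not tested. Without het replicate 3, the library with Leydig markers, the Spocd1 log2 fold change was -0.92. Leaving out that library is no test of other cells, since the Sertoli sums of het replicates 1 and 2 were 25384 and 18292.

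Tex15 (ENSMUSG00000009628, plus strand, chr8:33516738-33585582), which encodes the SPOCD1 partner TEX15, was the steadiest member. It had 16913, 15421 and 16239.6 normalized counts in het and 17094, 16236 and 16178 in KO, so that the highest library was 1.11 times the lowest. The log2 fold change was 0.03 ± 0.17 (SE, limma adjusted p 0.990). Its 95% interval, -0.35 to 0.41, is the narrowest of the 6, and its sign turned with quantile normalization and without het replicate 2. Scaled to germ cell markers the Tex15 log2 fold change was -0.12, where the median of all genes was -0.16. Spocd1 and Tex15 therefore did not move together across these libraries (Pearson r 0.06 over 6 libraries, a description only).

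Mael (ENSMUSG00000040629, minus strand, chr1:166201201-166238747) had 42769, 48330.1 and 33596 normalized counts in het and 37998, 25715 and 35864 in KO. KO replicate 2 was the lowest library, and the ranges overlapped. The KO mean of 33192 ± 6563 was 79.9% of the het one, 41565 ± 7440.5 (SD, n = 3). The log2 fold change was -0.33 ± 0.22 (SE, limma adjusted p 0.863), with a 95% interval from -0.82 to 0.16.

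**Figure D3:**
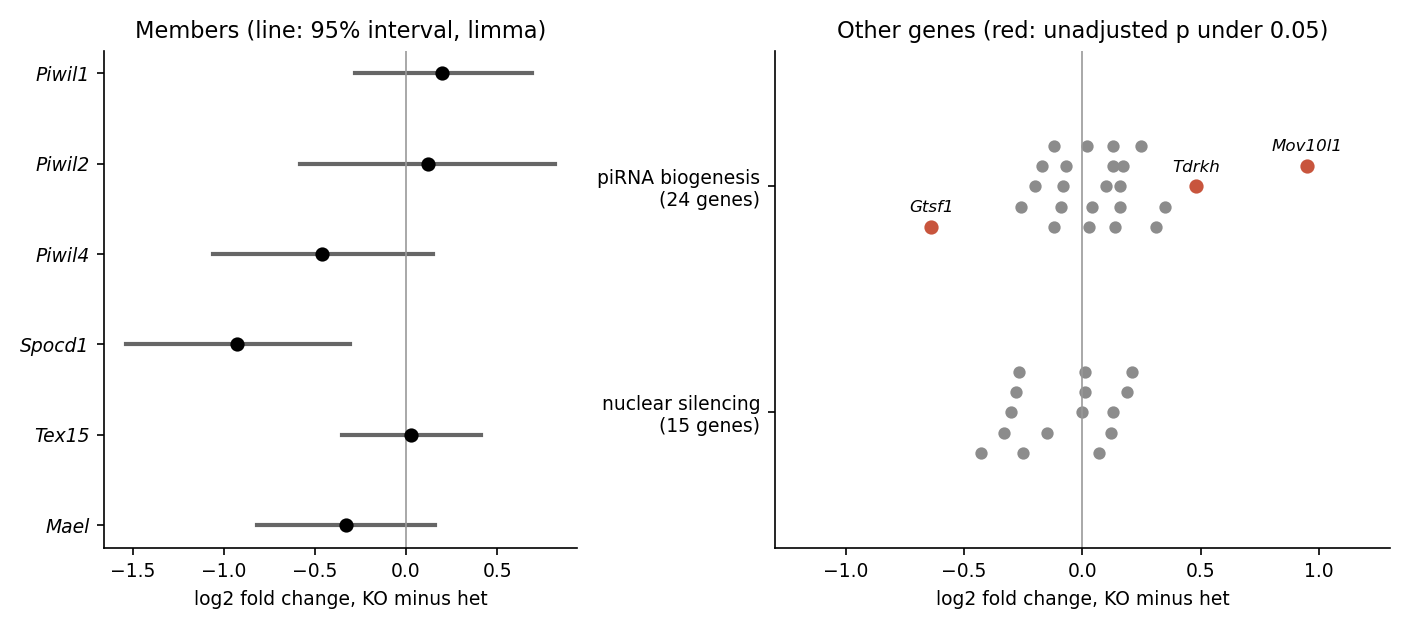
Log2 fold changes, KO minus het (horizontal axes), of the 6 genes with their 95% limma intervals (left) and of 24 piRNA biogenesis and 15 nuclear silencing genes, 1 point each (right). Among the 6 intervals that of Spocd1 alone lies wholly below 0, and Mov10l1, Tdrkh and Gtsf1 are the genes of the lists with an unadjusted p under 0.05.

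Ratios between genes of one library do not depend on its size factor. Piwil4 per 100 counts of Piwil2 was 13.9, 10.6 and 16.5 in het libraries, against 8.48, 8.97 and 9.63 in KO libraries, with means of 13.7 ± 2.97 and 9.03 ± 0.579 (SD, n = 3). Each KO library was below each het library in this ratio, and its KO spread was small. When all other tested genes were divided by Piwil2 in this way, 3.99% showed the same separation. Piwil1 per 100 counts of Piwil2 overlapped, at 3.22 ± 1.04 in het and 3.37 ± 0.874 in KO (SD, n = 3).

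Division by Ddx4, the germ cell helicase whose other name, Mvh, is part of the name of the reporter, was added after the values were seen. In this comparison 3 members separated with all KO libraries lower, beside 3.91% of all genes divided by Ddx4. Spocd1 per 100 counts of Ddx4 was 43.5, 39.3 and 70.4 in het and 34.4, 21.5 and 21.7 in KO. Piwil4 was 15.9, 12.8 and 17.0 in het and 12.6, 9.55 and 10.2 in KO, where the nearest libraries, het replicate 2 and KO replicate 1, almost touched. Mael was 149.9, 156 and 191 in het and 131, 127 and 124 in KO. Piwil2, Tex15 and Piwil1 overlapped between genotypes. These ratios have no test, since the denominators were chosen among genes already seen, and het replicate 3 was the highest library in each of the 3.

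**Figure D4:**
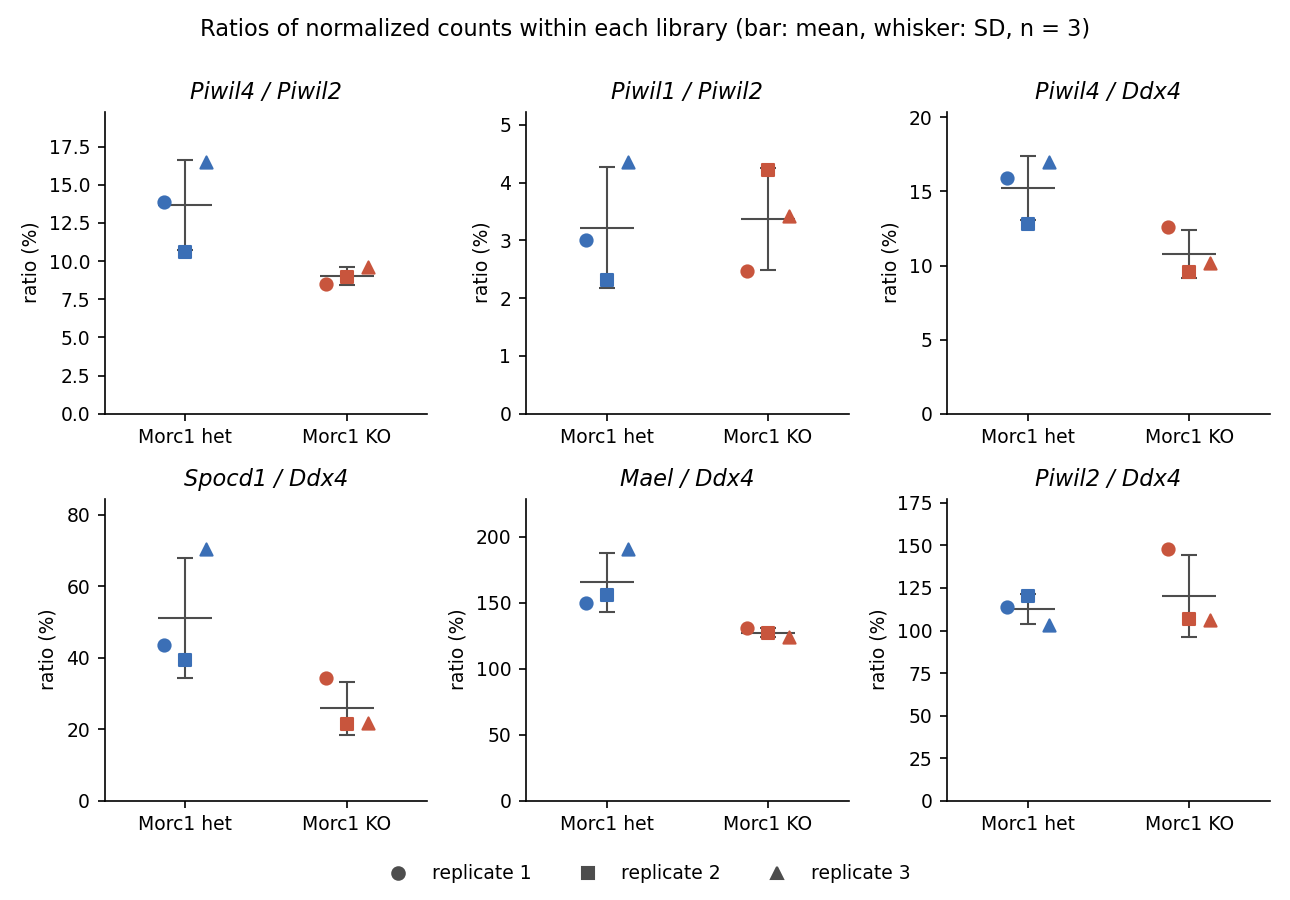
Ratios of normalized counts within each library, in percent (vertical axes, from 0), for het (blue) and KO (red), with a symbol per replicate number, the mean as a bar and the SD as a whisker (n = 3). The KO libraries lie below the het libraries for Piwil4 over Piwil2 (8.48 to 9.63 against 10.6 to 16.5) and for Piwil4, Spocd1 and Mael over Ddx4, and overlap for Piwil1 over Piwil2 and Piwil2 over Ddx4.

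The members varied together between libraries to different degrees. Over the 6 libraries the log2 levels of Piwil4 and Mael had a Pearson r of 0.93, those of Piwil2 and Ddx4 0.94 and those of Piwil4 and Spocd1 0.86. Piwil2 and Spocd1 had 0.27, and Tex15 had at most 0.57 with any other member. All points share their libraries, depth and size factors, so these are descriptions.

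By the same measure, over 14060 other protein-coding genes with a mean of at least 100, the genes most like each member were sought. Spocd1 was most like Ptpn5, a tyrosine phosphatase gene (r 0.999), Ttc7b (0.997) and 1700003E16Rik (0.994). Ptpn5 had 1217, 1223 and 1210.3 normalized counts in het and 1056, 500.1 and 693 in KO, the same flat het level and uneven KO level as Spocd1. Piwil4 was most like Gdpd1 (0.993), Prph2 (0.990) and Cpeb4 (0.990), and Mael was most like Dpy19l3 (0.997), Mab21l3 (0.993) and Arrdc4 (0.990). Piwil2 was most like Fam76a (0.998), Des (0.997) and Ntpcr (0.996), and Piwil1 most like Amph (0.994), Gtdc1 (0.984) and Themis2 (0.979). Tex15 was most like Zfp493 (0.970), Mindy3 (0.934) and Serinc3 (0.920). With 6 points such values are easily reached: 225 genes had an r of at least 0.95 with Piwil2, 98 with Piwil4, 82 with Mael, 53 with Spocd1, 24 with Piwil1 and 1 with Tex15.

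The rest of the pathway was read in the same way. Of 24 genes of piRNA biogenesis and its Tudor-domain scaffolds, 0 passed the adjusted threshold with limma. Of all genes 0.431% were called higher and 0.0423% lower, so that 0 calls among 24 genes says little. At an unadjusted limma p under 0.05, 2 of the 24 were higher and 1 lower, beside 4.42% and 2.44% of all genes. Their log2 fold changes were above 0 in 15 genes and below 0 in 9, with a median of 0.07. Mov10l1, the helicase that feeds precursors into the primary piRNA pathway, had 12593, 12337 and 8582 normalized counts in het and 23526, 15170.3 and 27099 in KO (log2 fold change 0.95 ± 0.26 SE, limma adjusted p 0.252). It passed with DESeq2 on recovered reads only (adjusted p 0.0397). Gtsf1, a cofactor of PIWI slicing, had 7975, 7098 and 7054 in het and 4008, 4342 and 6077 in KO (log2 fold change -0.64 ± 0.21 SE, limma adjusted p 0.467). Tdrkh, a mitochondrial Tudor protein of piRNA trimming, went from a mean of 2687 ± 208 to 3741 ± 232 (SD, n = 3), with a limma log2 fold change of 0.48 and an adjusted p of 0.645. Every KO library was above every het library in Mov10l1, Tdrkh and Wdr77, and below in Gtsf1 and Tdrd5, beside 7.17% and 5.57% of all genes. Wdr77 and Tdrd5 were named after their values were seen.

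Of 15 genes of DNA methylation and nuclear silencing, 0 passed the adjusted threshold with limma, beside 0.431% of all genes called higher and 0.0423% lower. At an unadjusted limma p under 0.05 there were 0 of the 15, beside 4.42% and 2.44% of all genes. Their smallest adjusted p was 0.886, with 7 genes above 0 and 8 below. Dnmt3l, the cofactor of de novo methylation in gonocytes, had 4521, 4601 and 5773 normalized counts in het and 4809, 3507 and 4218 in KO. Dnmt3c, the rodent methyltransferase of young transposon promoters, had 761, 567 and 594 in het and 639, 261 and 827 in KO. In both the genotypes overlapped. Dnmt3a, named after its values were seen, was the 1 gene of the 15 in which every KO library was above every het library, a share near the 7.17% of all genes, with means of 20534 ± 1339.5 and 23713 ± 1389 (SD, n = 3) and a limma adjusted p of 0.894. Spin1, the chromatin reader that binds SPOCD1, had means of 9084 ± 1203 and 9966 ± 1361 (SD, n = 3), which overlapped.

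Transposable element (TE) copies that lie inside these genes gave a second view, mostly of intronic sequence. The TE table listed 95 copies that overlap the GENCODE span of a member by at least 1 base, of which 38 were on the strand of the gene and 1, in Piwil4, touched an exon. The span covers all transcripts of a gene: by the longest transcript alone, all 7 Piwil1 copies, 22 of the 25 Tex15 copies and 5 of the 14 Piwil4 copies lay outside the gene, among them the tested Piwil1 copy and 11 of the 13 tested Tex15 copies. All 95 copies together held 1001 to 1354 reads per library. Only 27 copies in 5 genes had the mean of at least 10 needed for the fit, and no Piwil4 copy did. Of these 27, limma called 0 higher and 0 lower, beside 15.6% and 0.735% of the 49781 copies tested in all. Every KO library was above every het library in 1 of them and below in 3, beside 22.8% and 7.58% of all copies tested. Their median log2 fold change was 0.28, and that of all tested copies 0.03.

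The 3 lower copies all lay in introns of Mael and were annotated on the opposite strand, which does not give the strand of their reads. Among them was the TE copy with the highest mean of all members, a copy of 5080 bp. This copy, at chr1:166217733-166222812 (plus strand, positions as the deposited table lists them), had normalized counts of 344, 326 and 267 in het libraries, against 159, 176 and 77.0 in KO libraries. Each KO library was below each het library, and the KO mean was 44.0% of the het mean. Its limma log2 fold change was -1.26 (SE 0.39) with an adjusted p of 0.0504, just outside the threshold. It passed at a mean of at least 50 (adjusted p 0.0219), with a pseudocount of 10 (0.0397) and without het replicate 3 (0.0459), and over all 12 alternatives its adjusted p ran from 0.0219 to 0.196. The size of this fall depended on the scaling. With the size factors of the gene table the copy had 288 ± 20.3 in het and 163 ± 73.7 in KO (SD, n = 3). Its log2 fold change was then -0.93 (limma adjusted p 0.161), and the median of all copies tested moved from 0.03 to 0.38. The TE table held 1974504 to 2511317 reads per het library and 2868024 to 3703419 per KO library. Which scaling is nearer the truth was not tested.

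Per 1000 reads counted on Mael itself, the copy had 7.27, 5.82 and 8.10 reads in het and 4.35, 9.16 and 2.46 in KO. This ratio, taken after the values were seen, overlapped between genotypes because KO replicate 2, which was lowest in Mael, was the highest here (exact two-sided permutation p = 0.500). The other 2 lower copies, at chr1:166210833-166212802 and chr1:166230611-166230709, had limma adjusted p-values of 0.102 and 0.296. A Mael copy on the strand of the gene, at chr1:166228875-166229315, was uneven among KO libraries, with 8.44, 21.3 and 4.79 normalized counts in het and 238, 57.3 and 0 in KO. It was not called (limma adjusted p 0.728), but without KO replicate 3 it was, at a log2 fold change of 3.46 and an adjusted p of 0.0232.

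In the other genes the copies with the most reads were small contributors. The 6183 bp copy of Piwil1 (chr5:128721822-128728004, opposite strand), intronic in the transcript with the outermost start and upstream of the longest transcript, had 26.4, 17.9 and 31.6 normalized counts in het and 39.1, 53.4 and 35.9 in KO (limma adjusted p 0.374). It was the copy with every KO library above every het library. The fullest copies of Piwil2 (chr14:70388180-70388284), Spocd1 (chr4:129948231-129948627) and Tex15 (chr8:33545222-33545426) had means of 46.4, 11.6 and 38.0, overlapped between genotypes, and had limma adjusted p-values of 0.695, 0.601 and 0.934. How reads that match several copies were counted is not given in the sources used here, so values of single copies are uncertain.

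**Figure D5:**
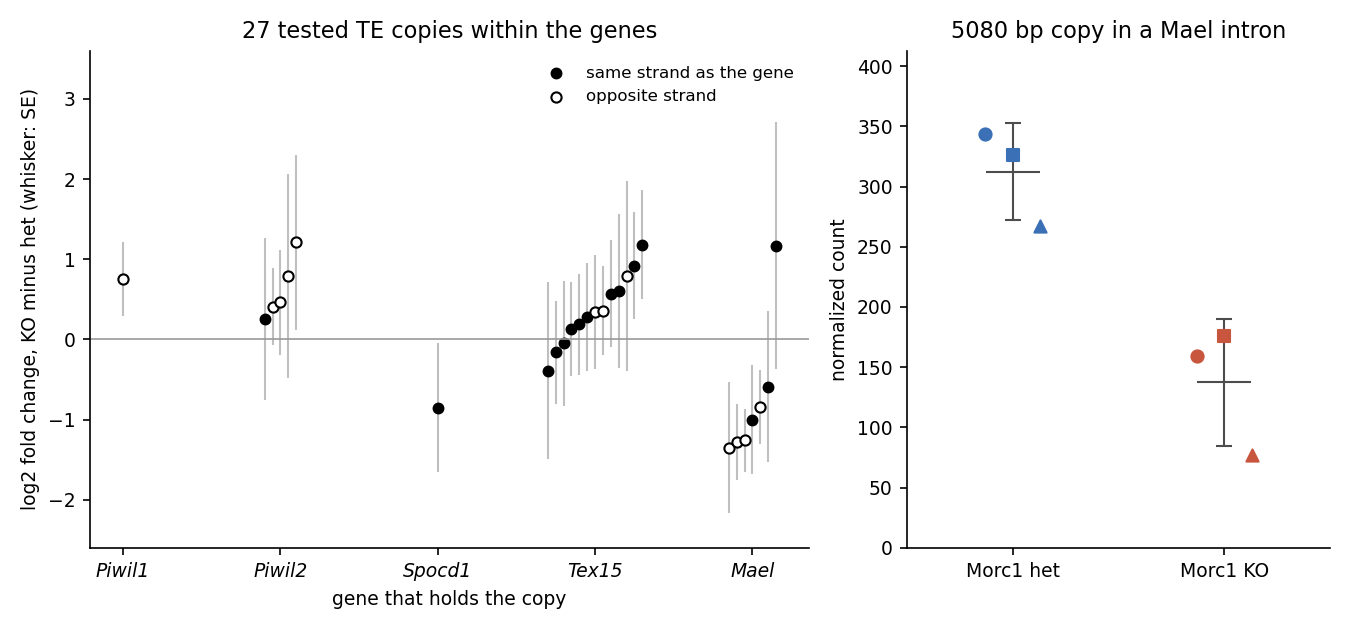
Left, log2 fold changes, KO minus het (vertical axis, whiskers SE), of the 27 tested TE copies within the genes, filled where the copy is on the strand of the gene and open where it is opposite. Right, normalized counts of the 5080 bp copy in a Mael intron for het (blue) and KO (red), with the mean and SD (n = 3): the KO libraries, at 77.0 to 176, lie below the het libraries at 267 to 344.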

How the data were processed

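Libraries were prepared from amplified cDNA (SMART-Seq v4), per the labels' protocols. The submitters' processing notes name HISAT2 2.1.0, featureCounts 1.5.2 and DESeq2 1.26.0 and the build GRCm38 (mm10). The strand setting is not given in the sources used here. The strand of a TE copy is therefore that of its annotation, and the strand its reads came from is not known. The deposited gene and TE values are a normalized signal, which the authors made as read counts divided by a factor per library: all values of both tables (100.0%) were whole multiples of a step per column, within 1e-06 reads. For KO replicate 1 of the gene table the step was too near 1 for an automatic check, and its reads were recovered alike.

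Features whose mean over the 6 libraries reached 10 entered limma 3.58.1 (R 4.3.3, trend, two-sided, Benjamini-Hochberg over the whole table) on log2(value + 1), which understates changes of low features. The fits held the 3 het and 3 KO libraries at P0 without covariates. Their code was tested on simulated counts with the same dispersion (spread between libraries) for every gene. Those counts lack the differences in cell markers between these libraries, so that test gives no error rate for these data. Alternatives were edgeR 4.0.16 and DESeq2 1.42.0 on recovered reads, other pseudocounts, filters and scalings, a replicate block and leaving out each library. The members and lists were chosen with earlier results of these data known. Named genes were the members, Morc1, genes of the lists with an unadjusted p under 0.05, the 3 genes most like each member, its protein-coding neighbours, and in each member the TE copy with the highest mean. Gene positions and exon lengths are from GENCODE release M21. No transcript of another gene matched a member's longest transcript in a megablast search (BLAST 2.17.0). The RefSeq table used gave start regions for 3 of the 6 members.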

Additional observations from a re-analysis of the deposited data

How the results depend on the processing

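With the 18 alternatives run for each member, limma, edgeR and DESeq2 called 0 of the 6 in every one, and Spocd1, Piwil4, Mael and Piwil1 kept their sign. The Spocd1 log2 fold change ran from -1.24 to -0.64 (adjusted p 0.165 to 0.851), that of Piwil4 from -0.66 to -0.21, of Mael from -0.51 to -0.16 and of Piwil1 from 0.05 to 0.28. Scaling to germ cell markers moved the median of all genes from -0.02 to -0.16, and changes are to be read relative to it. The factor of this scaling was 1.495 in KO replicate 2, the library with the highest Zbtb16, and 0.7742 to 1.065 in the others. Ddx4 in KO replicate 2 was 20304 normalized counts, within the range of the other libraries. Whether the factor follows cell stage or germ cell content was not tested. Piwil2 turned to -0.04 with quantile normalization, and ran from -0.19 to 0.37 when single libraries were left out. With germ cell scaling it was -0.03, which is below 0 but above the median of -0.16. Tex15 turned to -0.004 with quantile normalization, and ran from -0.01 to 0.06 without single libraries. With germ cell scaling it was -0.12, again above that median. The Morc1 log2 fold change ran from -2.31 to -1.88 without single libraries. Its call was lost in limma without trend (-2.03, adjusted p 0.0890), with the block in edgeR (-2.04, 0.0717) and when het replicate 1 (0.0519) or KO replicates 1 (0.0990) or 3 (0.0623) were left out. DESeq2 called 1 piRNA biogenesis gene higher. Of the TE copies within members, 1 was called lower at a mean of at least 50 and with a pseudocount of 10. Without single libraries, 0 to 1 were called higher and 0 to 1 lower. Over all genes the number called higher ran from 17 without KO replicate 3 to 400 with DESeq2, and the number called lower from 0 with the block in edgeR to 65 with DESeq2.

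The labels give replicate numbers and do not say whether these pair the samples. The deviations of same-numbered het and KO libraries correlated at 0.138, -0.163 and -0.0438, and those of other-numbered ones at -0.200 to 0.206. With 3 libraries per genotype such values cannot decide whether the samples are paired. With the replicate block in limma the Spocd1 log2 fold change was -0.93 (adjusted p 0.408), and the block changed no member's call. By the length of the longest transcript in place of all exons, the het level of Piwil4 was 1159.9 normalized counts per kb in place of 712, and the order of the members was kept. Counting error was at most 3.51% for the member genes, while 27 of the 95 TE copies within them had enough reads to be tested.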

Other observations

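Genes beside the members on the chromosome were read as a view of their surroundings. Of the 12 nearest protein-coding neighbours, 11 were tested and 0 were called by limma, beside 0.431% of all genes called higher and 0.0423% lower. Fut4, a fucosyltransferase gene 7587 bp from Piwil4, had normalized counts of 76.3, 95.6 and 74.1 in het libraries (replicates 1 to 3), against 171, 197 and 170.5 in KO libraries, with every KO library above every het library (log2 fold change 1.13 ± 0.31 SE, limma adjusted p 0.265). Its neighbour Piwil4 had an estimate of the opposite sign. Gpa33, 34691 bp from Mael, was the other of 2 neighbours, of the 11, whose KO libraries were all above the het ones, beside 7.17% of all genes tested, at means of 157 ± 36.6 and 236 ± 47.0 (SD, n = 3; limma adjusted p 0.808). Adgrb2, 27755 bp from Spocd1, had the tight het level of Spocd1, at 1175, 1167 and 1175 normalized counts, and a wide KO range of 1229, 796 and 211, in which the lowest library was KO replicate 3 and not KO replicate 2. Ptp4a2, on the other side of Spocd1, had 8937 ± 92.8 in het and 12971 ± 6099.6 in KO (SD, n = 3), highest in KO replicate 3. The other tested neighbours (Rimbp2, Slc39a14, Polr3d, Amotl1, Purg, Ppp2cb and Ildr2) overlapped between genotypes, with limma adjusted p-values of 0.848 to 0.990, and Fzd10 beside Piwil1 was too low to test.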
